A study of Mus musculus with 12 samples.

Results

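The genes described here act in or against cyclic AMP (cAMP) signalling in brown adipose tissue. They are the cAMP phosphodiesterase genes Pde3a, Pde3b, Pde4a, Pde4b and Pde4d, the transcription factor gene Crem, the kinase gene Sik1, the regulator of G protein signalling Rgs2, the adenylyl cyclase gene Adcy3 and the protein kinase A subunit gene Prkar2b. They were chosen by symbol, from probe sets annotated with exactly 1 of these symbols, and the brightest probe set over the 12 arrays was kept for each gene. Of the 10 listed genes 9 were measured, among 22180 genes in all. The probe set annotated with Adcy3 also carries the symbol of a neighbouring gene, so Adcy3 has no value here.

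Total RNA of brown fat from male mice, 10 weeks old and fed standard chow, was hybridised to whole-transcript arrays. The 4 groups of 3 arrays were wild-type (WT) mice at 22 °C, Zbtb7b knockout (KO) mice at 22 °C, WT mice after 4 h at 4 °C and KO mice after 4 h at 4 °C. Zbtb7b encodes a zinc finger transcription factor. The labels name the KO without giving the allele, the tissue in which the gene was deleted or the strain, and they do not say how many animals an array stands for, so p-values measure the spread between these arrays.

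In the cold, sympathetic nerves release noradrenaline onto brown adipocytes, and its G protein-coupled receptors raise cAMP through adenylyl cyclase. cAMP releases the catalytic subunits of protein kinase A (PKA), which drive lipolysis, heat production through Ucp1 and transcription through CREB and its CRTC coactivators. The pathway restrains itself at several steps. Phosphodiesterases break cAMP down, and PKA regulatory subunits hold the catalytic subunits inactive. SIK kinases keep CRTC proteins in the cytoplasm, and Crem gives rise to repressors such as ICER that compete with CREB. RGS proteins shorten G protein signals, which need not lower cAMP.

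Values are log2 signals, so a difference of 1 is a doubling in signal, and levels of different genes are not compared. The median signal of an array lay between 2.63 and 2.83, and a log2 difference is given without a fold for genes with a group mean under 4. Zbtb7b was lower on the 6 KO arrays (2.96 to 3.62) than on the 6 WT arrays (4.26 to 4.76). Of the tissue checks, Ucp1 lay between 11.55 and 12.95 on the 12 arrays and the hepatocyte gene Alb between 1.20 and 2.75, although a label field names liver and a different knockout. Skeletal muscle markers differed between arrays of the same group, with list means of 3.08 to 6.50 in WT and 3.48 to 8.63 in KO at 22 °C, and 5.32 to 7.90 in WT and 4.61 to 8.54 in KO at 4 °C. KO cold replicate 3 stood apart in neutrophil markers, whose mean there was 3.73, while the remaining 11 arrays lay between 1.64 and 2.42. Results that rest on that array are given with and without it.

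The first question was what 4 h of cold did to these genes in each genotype. In WT, Pde3a and Crem rose and Pde4a, Rgs2 and Prkar2b fell at an adjusted p under 0.05 (limma, Benjamini-Hochberg over all genes). That is 2 of the 9 measured genes higher, where 9.39% of all genes were higher, and 3 of 9 lower, where 7.98% were lower. In KO, 3 of 9 were higher (Pde3a, Crem and Sik1), beside 8.34% of all genes, and the same 3 genes as in WT were lower, beside 10.8%. Averaged over the genotypes, 4 of 9 were higher (Pde3a, Pde4b, Crem and Sik1) and 3 of 9 lower, where 12.9% and 14.3% of all genes were. The median size of the change, without its sign, was 0.74 in WT and 0.93 in KO over the 9 genes, and 0.23 in both genotypes over all genes. The arrays of the cold and the warm group did not overlap for 6 of the 9 genes in WT, where 36.8% of all genes did not overlap, and for 9 of 9 in KO, where the share was 31.6%. The genes were chosen with earlier results of these data known, so these counts and sizes describe them and do not test them as a group. RNA from whole tissue cannot tell fewer cells of a type from less RNA per cell.

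**Figure D1:**
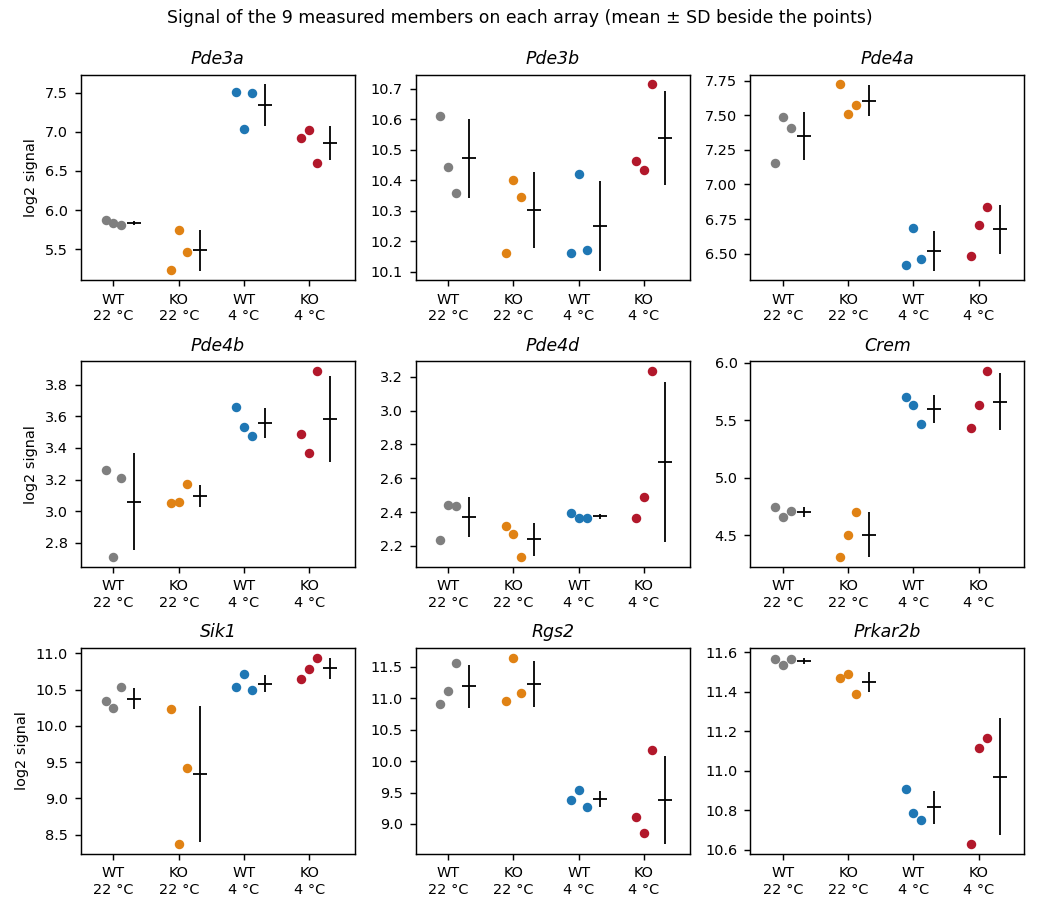
Log2 signal of the 9 measured genes on each of the 12 arrays, by genotype and temperature, with the mean and SD of each group beside its 3 points. Each panel has its own vertical scale. Pde3a and Crem are higher and Pde4a, Rgs2 and Prkar2b lower at 4 °C in both genotypes, while Sik1 spreads from 8.37 to 10.23 in KO at 22 °C.

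Among the phosphodiesterases, Pde3a and Pde4a moved in opposite directions. Pde3a encodes a cAMP phosphodiesterase that cGMP inhibits. At 22 °C the WT arrays read 5.87, 5.83 and 5.81 and the KO arrays 5.24, 5.75 and 5.46. At 4 °C the WT arrays read 7.51, 7.04 and 7.49 and the KO arrays 6.92, 7.02 and 6.61. The cold arrays were all above the warm arrays of either genotype. The rise was 2.84-fold in WT (log2 1.51 ± 0.17, SE, n = 3 per group, adjusted p = 1.41e-04) and 2.58-fold in KO (1.37 ± 0.17, adjusted p = 2.12e-04) by limma.

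Pde4a, which encodes a phosphodiesterase specific for cAMP, read 7.16, 7.49 and 7.40 in WT and 7.73, 7.51 and 7.57 in KO at 22 °C. At 4 °C it read 6.42, 6.69 and 6.46 in WT and 6.49, 6.71 and 6.84 in KO, below every warm array. Its signal was 1.77-fold lower in the cold in WT (-0.83 ± 0.14, adjusted p = 0.00165) and 1.90-fold lower in KO (-0.93 ± 0.14, adjusted p = 7.17e-04).

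Pde4b and Pde4d, of the same subfamily, had signals close to the array medians. Pde4b lay at 3.26, 2.71 and 3.21 in WT and 3.05, 3.06 and 3.17 in KO at 22 °C, and at 3.66, 3.53 and 3.47 in WT and 3.49, 3.37 and 3.89 in KO at 4 °C. It did not pass within WT (0.50 ± 0.17, adjusted p = 0.0695) or within KO (0.49 ± 0.17, adjusted p = 0.0705), and passed as higher over both genotypes (0.49 ± 0.12, adjusted p = 0.00899). Without KO cold replicate 3 the average was 0.41 (adjusted p = 0.0177). Pde4d ranged from 2.13 to 2.49 on 11 arrays and stood at 3.24 on KO cold replicate 3. Its difference in KO was 0.46 ± 0.19 (adjusted p = 0.126) with that array and 0.19 without it, and in WT 0.00 ± 0.19 (adjusted p = 0.995). On that array the neutrophil genes S100a8 and S100a9 read 3.89 and 2.87, against 1.18 to 1.79 and 1.30 to 2.46 on the others. The part of these cells in the Pde4b and Pde4d values was not tested.

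Pde3b encodes the phosphodiesterase through which insulin opposes lipolysis in fat. Its signal stayed within 10.16 to 10.72 on the 12 arrays. The cold difference was -0.22 ± 0.13 in WT (95% confidence interval -0.51 to 0.07, adjusted p = 0.319) and 0.23 ± 0.13 in KO (-0.06 to 0.53, adjusted p = 0.281). Changes of more than 0.53 in either direction lie outside both intervals.

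**Figure D2:**
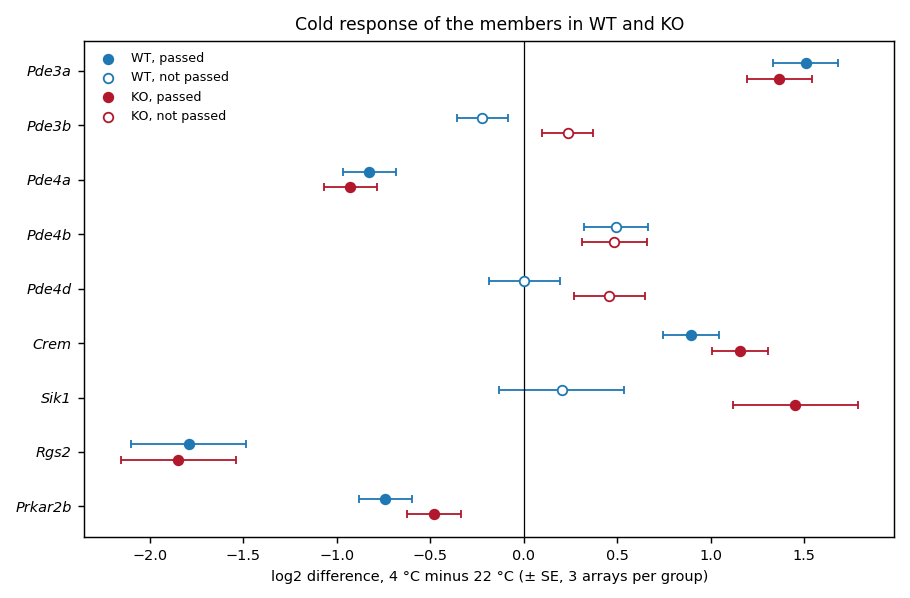
Difference in log2 signal between 4 °C and 22 °C for each of the 9 genes, in WT and in KO, with bars of 1 SE and 3 arrays per group. Filled points passed at an adjusted p under 0.05 and open points did not. The 5 genes that passed in WT lie on the same side of 0 in KO, and Sik1 is filled in KO only, a contrast whose own test did not pass (adjusted p = 0.387).

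Of the genes that act at the nucleus, Crem rose in both genotypes and Sik1 passed in KO. Crem signals at 22 °C were 4.75, 4.66 and 4.71 for WT mice and 4.31, 4.51 and 4.70 for KO mice. At 4 °C WT mice had 5.70, 5.64 and 5.47 and KO mice 5.43, 5.63 and 5.93, with no overlap between temperatures. The rise was 1.86-fold in WT (0.90 ± 0.15, adjusted p = 0.00148) and 2.23-fold in KO (1.16 ± 0.15, adjusted p = 2.49e-04). The single Crem probe set covers the gene as a whole here, so ICER and the longer transcripts were not separated.

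Sik1 is itself induced by cAMP and inactivates CRTC coactivators. Its signal in WT was 10.35, 10.25 and 10.53 at 22 °C and 10.53, 10.71 and 10.50 at 4 °C, and these ranges overlapped. In KO it was 10.23, 8.37 and 9.42 at 22 °C and 10.64, 10.79 and 10.94 at 4 °C. The low readings were those of KO at 22 °C, whose SD of 0.93 compares with 0.12 to 0.15 in the other groups. The cold difference was 0.20 ± 0.33 in WT (adjusted p = 0.763) and 1.45 ± 0.33 in KO (adjusted p = 0.00870), a 2.74-fold rise in KO. That rise was 0.97 (adjusted p = 0.0115) without KO replicate 2 at 22 °C, and did not pass when the 6 KO arrays were fitted alone (1.45, adjusted p = 0.0617).

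Rgs2 showed the largest fall among the 9 genes. Its protein speeds the return of G alpha subunits to the inactive state and can also inhibit adenylyl cyclase. At 22 °C the 3 WT readings were 10.90, 11.11 and 11.56 and the KO readings 10.96, 11.65 and 11.08. At 4 °C the WT readings were 9.38, 9.54 and 9.28 and the KO readings 9.11, 8.85 and 10.18. Each cold array was below each warm array. The fall was 3.47-fold in WT (-1.79 ± 0.31, adjusted p = 0.00162) and 3.60-fold in KO (-1.85 ± 0.31, adjusted p = 0.00122). KO cold replicate 3 was the highest cold array, and without it the KO difference was -2.25. Another Rgs2 probe set, dimmer with a mean of 3.55, also passed as lower in WT (-1.26 ± 0.30, adjusted p = 0.0119) and KO (-2.0 ± 0.30, adjusted p = 6.58e-04).

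Prkar2b encodes RII beta, the PKA regulatory subunit that predominates in fat cells. On the warm arrays it stood at 11.57, 11.53 and 11.56 (WT) and 11.47, 11.49 and 11.39 (KO). On the cold arrays it stood at 10.91, 10.78 and 10.75 (WT) and 10.63, 11.12 and 11.17 (KO), below each warm array. The signal was 1.67-fold lower in WT (-0.74 ± 0.14, adjusted p = 0.00359) and 1.39-fold lower in KO (-0.48 ± 0.14, adjusted p = 0.0343). The KO call was lost without KO replicate 1, 2 or 3 at 22 °C (adjusted p-values of 0.0840, 0.0962 and 0.0629), without KO cold replicate 1 (-0.31, adjusted p = 0.0962) and with the 6 KO arrays alone (adjusted p = 0.130). It was also lost with the replicate number as a block (adjusted p = 0.0549). The call in WT was kept in its own 22 alternatives (largest limma adjusted p = 0.0187). Leaving out a KO array cannot move the WT difference, only the shared estimate of the spread, so these settings do not compare the 2 calls.

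Markers of other cells moved with temperature in part. For scale, 12.9% of all genes were higher and 14.3% lower in the cold over both genotypes. The shares were 9.39% and 7.98% within WT, and 8.34% and 10.8% within KO. The mean of 9 mural and smooth muscle markers was 7.93 to 8.23 at 22 °C and 7.65 to 7.88 at 4 °C, and 4 of the 9 were lower and 1 higher over both genotypes. Of 21 skeletal muscle markers 1 was higher in the cold and 0 lower, with a median difference of 1.63, and of 13 macrophage markers 6 were higher and 0 lower. Within WT 7 macrophage markers were higher and 0 lower, and within KO 3 were higher and 1 lower. Of 9 T cell markers 3 were higher in WT and 0 lower, and in KO 0 were higher and 1 lower. Of 10 endothelial markers 3 were higher and 4 lower over both genotypes. Within WT 2 of them were higher and 1 lower, and within KO 3 were higher and 4 lower. The part of mural cells, endothelium, macrophages and T cells in the cold response was not tested. With the skeletal muscle mean of each array as a covariate, the WT cold differences were 1.59 for Pde3a, -0.88 for Pde4a, 1.0 for Crem, -1.92 for Rgs2 and -0.69 for Prkar2b, and each still passed (adjusted p-values of 3.79e-04 to 0.0145). The 12 brown adipocyte markers had means of 9.81 to 10.30 at 22 °C and 10.49 to 10.64 at 4 °C, with 3 higher and 5 lower in the cold over both genotypes.

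**Figure D3:**
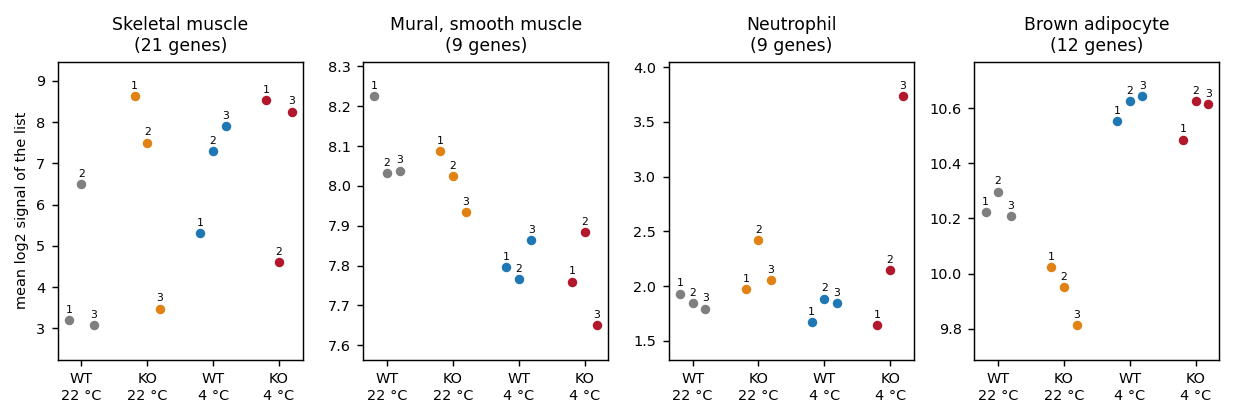
Mean log2 signal of 4 lists of cell type markers on each array, by genotype and temperature, with the replicate number above each point and a separate vertical scale for each list. Skeletal muscle markers vary within groups, the mural list is lower in the cold, and KO cold replicate 3 stands at 3.73 in the neutrophil list.

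The promoters of 3 of these genes hold the core of the cAMP response element, the sequence that CREB and the products of Crem bind. For 6 of the 10 listed genes (Rgs2, Pde4a, Pde4b, Pde4d, Prkar2b and Adcy3) entries of the RefSeq promoter table for GRCm38.p6 were used. They had 13 start sites between them. Entries for Pde3a, Pde3b, Crem and Sik1 were not used here. Listed genes on 1 chromosome were left out by a filter, while the count of all windows kept that chromosome. The counts therefore cover these 6 genes only. In the 200 bases before each start, TGACG was searched on both strands, and the complete element TGACGTCA, which contains it, likewise. The core was found at 3 of the 13 starts and in 15.7% of all 32851 promoter windows of this length. The complete element was found at 0 of 13 and in 1.47% of all windows. The windows with a match are shown. Of their genes Rgs2 and Pde4a passed in the cold as lower and Pde4b, over both genotypes, as higher. Prkar2b also passed as lower, with a match at 0 of its 2 starts.
Rgs2: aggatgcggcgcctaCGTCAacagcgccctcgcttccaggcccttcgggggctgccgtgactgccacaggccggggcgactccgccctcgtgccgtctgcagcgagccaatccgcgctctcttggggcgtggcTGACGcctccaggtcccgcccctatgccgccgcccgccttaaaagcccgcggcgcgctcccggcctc
Pde4a: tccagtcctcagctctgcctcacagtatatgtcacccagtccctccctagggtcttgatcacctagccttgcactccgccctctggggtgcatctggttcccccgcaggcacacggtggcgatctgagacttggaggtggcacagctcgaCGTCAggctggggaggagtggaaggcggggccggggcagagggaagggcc
Pde4b: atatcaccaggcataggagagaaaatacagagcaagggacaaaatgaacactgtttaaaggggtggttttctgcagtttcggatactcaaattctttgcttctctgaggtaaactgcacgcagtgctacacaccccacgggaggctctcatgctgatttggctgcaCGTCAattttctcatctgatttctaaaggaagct
Each is written 5′ to 3′ along the gene's own strand and ends at the base before the start, and capitals mark the core or its reverse complement. The Rgs2 window (chr1:144004150-144004349, minus strand) has a match beginning 185 and another 67 bases before the start. The Pde4a window (chr9:21183901-21184100, plus strand) belongs to 1 of 3 starts of that gene and has its match 50 bases before it. The Pde4b window (chr4:102421355-102421554, plus strand) belongs to 1 of 4 starts, with the match 34 bases before it. A match of these letters is a description of the window, and the arrays do not separate the starts of a gene.

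The second question was whether the knockout changed these genes. At 22 °C, 0 of the 9 passed in limma, where 0.55% of all genes did, and 1 (Sik1) had an unadjusted p under 0.05, as did 11.4% of all genes. In the cold 0 of 9 passed, beside 0.911% of all genes, and over both temperatures 0 of 9, beside 1.63%. In either comparison 1 of 9 (Pde3a) had an unadjusted p under 0.05, where 14.4% of all genes did in the cold and 14.7% over both temperatures. The KO and WT arrays did not overlap at 22 °C for 4 of the 9 genes (Pde3a, Pde4a, Sik1 and Prkar2b), where 17% of all genes did not overlap. In the cold this held for 2 of 9 (Pde3a and Pde3b), where 20.6% did not.

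Pde3a was lower on the 3 KO arrays than on the 3 WT arrays at either temperature. Its difference was -0.35 ± 0.17 at 22 °C (adjusted p = 0.470), -0.49 ± 0.17 at 4 °C (adjusted p = 0.215) and -0.42 ± 0.12 over both (95% confidence interval -0.69 to -0.16, adjusted p = 0.115). Sik1 had the largest difference at 22 °C, -1.04 ± 0.33 (interval -1.77 to -0.31, adjusted p = 0.236), and 0.21 ± 0.33 in the cold (adjusted p = 0.833). The Sik1 value was -1.48 and passed (adjusted p = 0.0314) without KO replicate 1 at 22 °C, and was -0.55 (adjusted p = 0.422) without KO replicate 2, so that a single array decides its size. On the same KO arrays at 22 °C Nr4a3, an immediate-early nuclear receptor gene that cAMP induces, read 6.45, 4.43 and 4.79. Atf3 read 6.61, 5.47 and 6.14, and both were lowest on replicate 2, as Sik1 was. Of other cAMP-responsive genes named below, Dio2 (5.31, 5.0 and 4.27), Ppargc1a (9.15, 9.10 and 8.98) and Ucp1 (12.01, 11.61 and 11.55) were lowest on replicate 3. The cause of the Sik1 spread was not tested.

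The other genes showed small differences between genotypes on their brightest probe sets. At 22 °C they ranged from -0.20 (Crem, adjusted p = 0.681) to 0.25 (Pde4a, adjusted p = 0.543), and in the cold from -0.02 (Rgs2, adjusted p = 0.990) to 0.32 (Pde4d, adjusted p = 0.478). Without KO cold replicate 3 the Pde4d value in the cold was 0.053 (adjusted p = 0.901) and that of Rgs2 was -0.42 (adjusted p = 0.455). The dimmer Rgs2 probe set had a larger difference at 22 °C (0.86 ± 0.30, limma adjusted p = 0.277) and 0.12 ± 0.30 in the cold (adjusted p = 0.897). For the brighter Rgs2 probe set the interval ran from -0.63 to 0.70 at 22 °C and from -0.68 to 0.65 in the cold. Differences within those bounds are not resolved by 3 arrays per group. For Prkar2b the intervals were narrower, -0.42 to 0.20 at 22 °C and -0.16 to 0.47 in the cold. The macrophage list mean at 22 °C was 6.10 to 6.43 in KO and 5.39 to 5.78 in WT, with 0 of its 13 genes passing, and its part in the differences between genotypes was not tested.

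**Figure D4:**
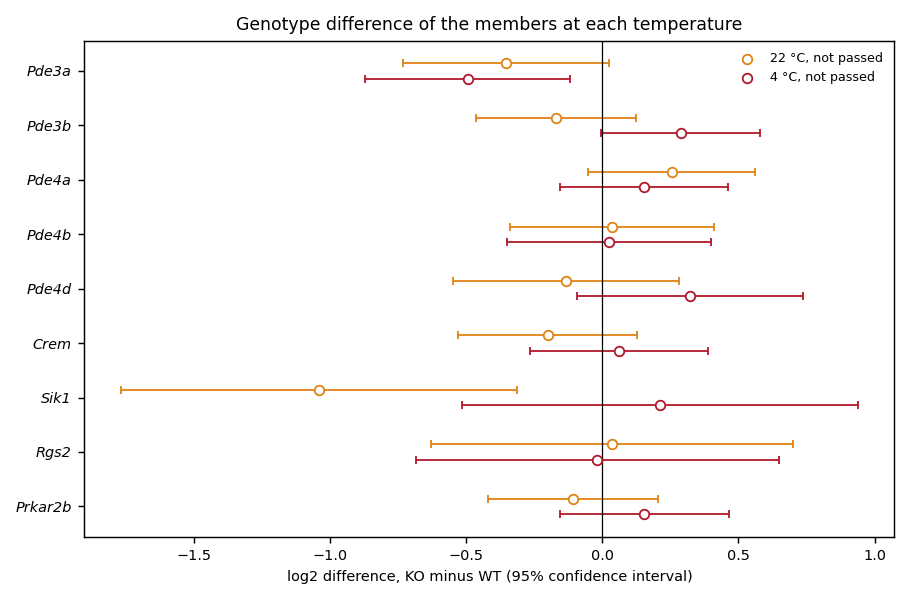
Difference in log2 signal between KO and WT for each of the 9 genes at 22 °C and at 4 °C, with 95% confidence intervals that are not adjusted for the number of genes. No point passed at an adjusted p under 0.05. The intervals of Sik1 at 22 °C (-1.77 to -0.31) and of Pde3a at 4 °C (-0.87 to -0.12) do not include 0.

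The third question was whether the cold response differed between genotypes. None of the 9 genes passed the test of the genotype by temperature interaction in limma, where 0.0271% of all genes did, and 2 of 9 (Sik1 and Pde3b) had an unadjusted p under 0.05, as did 10.5% of all genes. The interaction was 1.25 ± 0.47 for Sik1 (adjusted p = 0.387) and 0.46 ± 0.19 for Pde3b (adjusted p = 0.429). For Pde3a it was -0.14 ± 0.25 (interval -0.67 to 0.39), for Crem 0.26 ± 0.21 (-0.20 to 0.73) and for Rgs2 -0.05 ± 0.43 (-1.0 to 0.89). On the dimmer Rgs2 probe set it was -0.74 ± 0.42 (limma adjusted p = 0.572).

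The rest of the pathway was described with 8 lists by role, in which 78 of 91 listed genes were measured. Over both genotypes 27 of the 78 were higher and 13 lower in the cold, and 38 did not pass, beside the 12.9% and 14.3% of all genes given above. The median difference was 0.10 over these genes and -0.01 over all genes. Of the 6 measured receptor and G protein genes 3 were higher (Gnai3, Gnai1 and Gnb1) and 0 lower. Gnai1, an inhibitory G alpha subunit, passed in WT (0.82, adjusted p = 0.0109) and stood at 0.11 in KO (adjusted p = 0.761), and the difference between these responses did not pass (interaction adjusted p = 0.394). Of 15 genes of receptor desensitisation and RGS proteins 1 was higher and 4 lower. Arrb1, which encodes a beta-arrestin that uncouples receptors from G proteins, was lower in WT (-1.05, adjusted p = 0.00150) and KO (-0.82, adjusted p = 0.00611). The receptor kinase gene Grk6 was lower by both tests as well (-0.66 and -0.97), and Rgs3 and Rgs10 passed as lower in KO (-0.95 and -0.86), with interactions that did not pass (adjusted p-values of 0.457 and 0.317).

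The adenylyl cyclases, which make cAMP, split. Of 9 measured, 3 were higher in the cold over both genotypes and 1 lower. Adcy9 read 7.66, 8.11 and 8.13 in WT and 7.97, 8.01 and 8.18 in KO at 22 °C. It read 5.67, 5.89 and 5.89 in WT and 6.17, 6.21 and 6.29 in KO at 4 °C. Averaged over the genotypes it was 3.98-fold lower (-1.99 ± 0.10, adjusted p = 1.70e-07). Adcy4 read 7.50, 6.98 and 7.21 in WT and 7.23, 6.57 and 7.14 in KO at 22 °C, and 8.76, 8.80 and 8.63 in WT and 9.32, 8.91 and 8.66 in KO at 4 °C. It was 3.34-fold higher (1.74 ± 0.15, adjusted p = 4.84e-06). The temperatures did not overlap for either gene. Adcy2 (1.14) and Adcy10 (0.56, at group means of 2.06 to 3.13) were also higher.

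Of 11 other cAMP phosphodiesterase genes 3 were higher in the cold over both genotypes and 1 lower. Pde7b was higher by 1.26 ± 0.16 (adjusted p = 7.16e-05), Pde7a by 0.76 and Pde10a by 0.44, while Pde8a was lower (-0.52 ± 0.10, adjusted p = 0.00127). Pde7b was also lower in KO than in WT over both temperatures (-0.69 ± 0.16, adjusted p = 0.0489), with KO readings of 7.66, 7.75 and 6.95 against 8.62, 8.32 and 8.50 in WT at 22 °C. At 22 °C alone it did not pass (-1.03, adjusted p = 0.0690). Adcy10 was the other gene of these 7 upstream lists to pass between genotypes, in the cold (-0.95, adjusted p = 0.0184).

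Of 7 measured genes of PKA subunits and inhibitors 2 were higher over both genotypes, 2 were lower and 3 did not pass. Prkar2a (0.86 ± 0.13, adjusted p = 3.24e-04) and Prkar1a (0.57 ± 0.11, adjusted p = 9.81e-04), which encode the RII alpha and RI alpha regulatory subunits, were the higher ones, while Prkar2b was lower. The catalytic subunit genes Prkaca (-0.80 ± 0.18, adjusted p = 0.00491) and Prkacb (-0.37 ± 0.11, adjusted p = 0.0298) were lower. In WT 2 of the 7 were higher and 0 lower, and in KO 1 was higher and 2 lower, with no interaction that passed. Of 10 anchoring and Epac genes 4 were higher and 3 lower. The lower ones were the A-kinase anchoring protein genes Akap5 (-1.56), Akap1 (-1.02) and Akap7 (-1.11), which place PKA at membranes and organelles, and each passed in both genotypes. Rapgef3, which encodes the cAMP-activated exchange factor Epac1, was higher by 0.79 ± 0.14 (adjusted p = 8.51e-04).

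Of 8 measured genes of the CREB, CRTC and SIK group 4 were higher and 0 lower. Sik3, a relative of Sik1, was higher in WT (1.13, adjusted p = 5.96e-04) and KO (1.33, adjusted p = 1.78e-04). The acetyltransferase gene Crebbp (0.59), the coactivator gene Crtc2 (0.55) and Creb1 itself (0.43) were higher over both genotypes. Of 12 cAMP-responsive genes 7 were higher and 2 lower over both genotypes, led by Dio2 (4.98), Ppargc1a (2.66), Nr4a3 (3.11) and Atf3 (2.69). In WT 4 of these 12 were higher in the cold and 2 lower, and in KO 7 were higher and 0 lower, beside the shares of all genes given above. The interaction passed for 1 of the 12 (Dio2). Between genotypes 3 of the 12 were lower in KO at 22 °C, 0 in the cold and 2 over both temperatures. In either direction 0.55%, 0.911% and 1.63% of all genes passed in these comparisons. Among the 12, Ucp1 was lower in KO at 22 °C (-0.80 ± 0.14, adjusted p = 0.0257). The Dio2 mean at 22 °C was 4.86 in KO and 8.41 in WT.

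**Figure D5:**
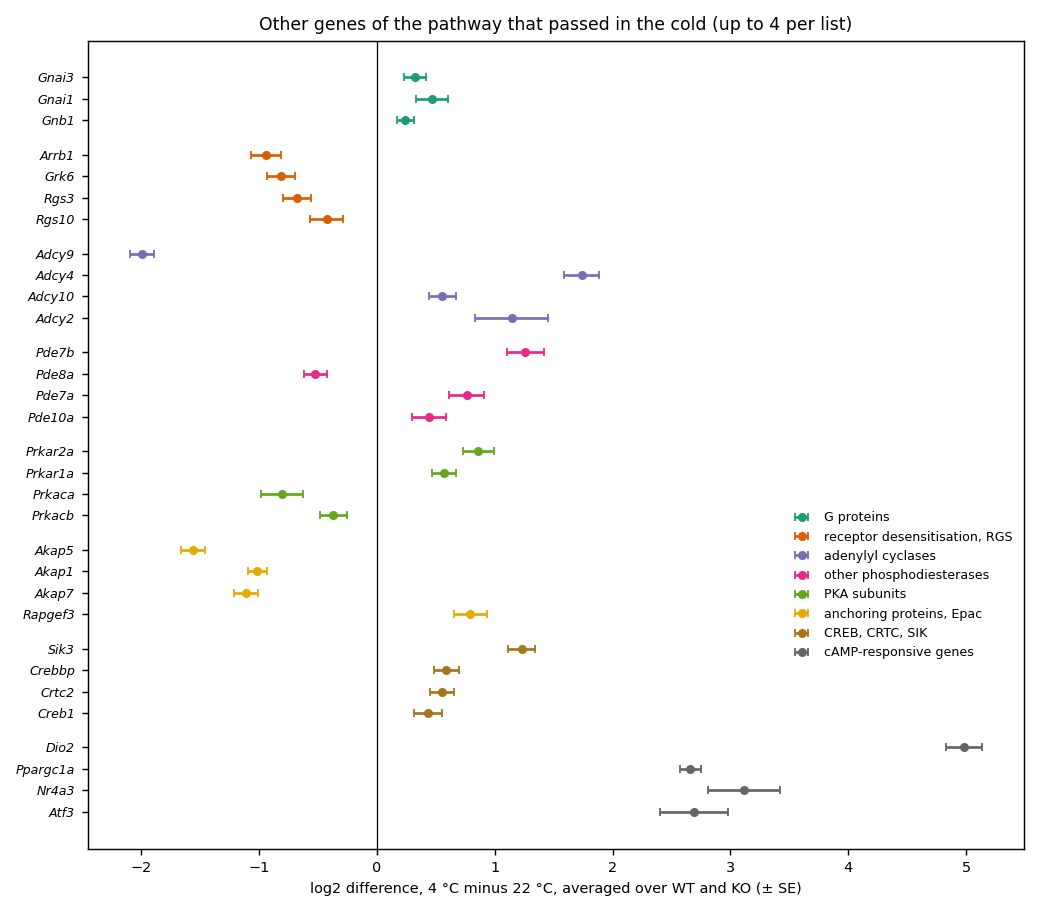
Difference in log2 signal between 4 °C and 22 °C, averaged over WT and KO with bars of 1 SE, for up to 4 genes of each list with the smallest p among those that passed. Adcy9 (-1.99) and Adcy4 (1.74) lie on opposite sides of 0, as do the PKA regulatory genes Prkar2a and Prkar1a and the catalytic genes Prkaca and Prkacb.

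Genes with similar profiles over the 12 arrays were sought for the 4 members with the smallest p of the overall test among groups. Each of 8156 genes whose mean signal reached 5 or more was centred on its own mean, and likeness was the root mean square difference from the member. Closest to Pde3a, whose SD over the arrays was 0.80, were Gtf2ird1 (0.18), Baz1a (0.18) and Ppif (0.19). Closest to Crem (SD 0.56) were Nus1 (0.11), Nob1 (0.12) and Acer2 (0.13). For Pde4a (SD 0.49) they were Mtss1 (0.10), Zc3h7b (0.11) and Inpp5k (0.11), and for Rgs2 (SD 1.02) St3gal4 (0.22), Esr1 (0.27) and Sh2d4a (0.27). St3gal4 was lower by 2.09 in WT and 1.82 in KO in the cold, near the 1.79 and 1.85 of Rgs2. This nearness follows from the choice of genes by likeness on the same arrays.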

How the data were processed

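Per the labels' protocols, 400 ng of total RNA per sample was turned into biotinylated cDNA. The submitters' processing notes name oligo, RMA and limma without versions. The deposited values are log2 signals that the authors made with RMA. The scale is not written with them and was inferred from the values, whose quartiles hardly differ between arrays. The number of arrays limits the precision.

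Of 41345 probe sets 23521 carried 1 gene symbol, 1814 several and 16010 none. For 1082 genes with several probe sets the brightest was used. In R 4.3.3 with limma 3.58.1 each of the 22180 genes was fitted over the 12 arrays with group means as coefficients (lmFit, eBayes), with 7 two-sided contrasts and Benjamini-Hochberg adjustment over all genes of a contrast. The fit was tested on simulated data.

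Members and lists were chosen with earlier results of these data known. Named were the members, Zbtb7b, Ucp1, Alb, up to 4 genes of a list by the smallest p in the averaged cold comparison, up to 2 that passed between genotypes or in the interaction, and the 3 most similar genes of 4 members. Of the other genes named, S100a8 and S100a9 were taken as defining neutrophil markers. A Grk3 probe set was matched through an older symbol.

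The marker lists whose means are not given in the results had means over the 12 arrays of 2.85 to 3.15 (15 hepatocyte genes), 2.05 to 2.48 (6 B cell), 2.81 to 4.02 (9 T cell), 8.37 to 8.72 (10 endothelial), 4.47 to 5.03 (7 Schwann cell), 5.20 to 6.53 (7 white adipocyte) and 3.09 to 4.93 (1 erythroid).

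Alternatives were the choice of probe sets, a minimum mean signal of 5, other scalings, spreads and array weights, a block for the replicate number, a skeletal muscle covariate, the 6 arrays of a comparison alone and leaving out each array.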

Additional observations from a re-analysis of the deposited data

Results flagged for a closer look

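Among the genes named, Dio2, which encodes the enzyme that activates thyroid hormone, differed between genotypes in its cold response by the interaction test (3.41, limma adjusted p = 0.00190). Its rise in the cold was 3.28 for WT and 6.69 for KO mice. The group means were 8.41 in WT and 4.86 in KO at 22 °C, and 11.69 in WT and 11.55 in KO at 4 °C. The KO mean was thus lower at 22 °C and not higher in the cold. Ppargc1a, a coactivator of thermogenic genes, was lower on each KO array than on each WT array at 22 °C and higher on each in the cold, with an interaction of 0.68 that did not pass (adjusted p = 0.246). Its KO and WT readings at 22 °C nearly touched, with 9.15, 9.10 and 8.98 in KO and 9.15, 9.27 and 9.23 in WT.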

How the results depend on the processing

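The 18 calls on single members were recomputed in 388 alternatives, of which 381 kept direction and call, 7 lost the call and 0 reversed. Those lost were Prkar2b in KO (6, given above) and Sik1 in KO with its 6 arrays alone. In part of the 388 the difference itself could not change, because the array left out lay outside the comparison or only the spread was modelled otherwise. The 381 are thus not independent checks of direction. Of 957 alternatives for the 45 differences that did not pass, 5 passed and 54 reversed. Those that passed were Sik1 between genotypes (given above), Pde4b in the cold in WT with array weights (adjusted p = 0.0353) and without KO cold replicate 3 (0.0418), Pde4b in KO without WT replicate 2 at 22 °C (0.0377) and Pde4d in KO without KO cold replicate 1 (0.62, adjusted p = 0.0442). The causes were not tested. Pde4b and Pde4d have no value with a minimum mean signal of 5.

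The replicate numbers did not pair the arrays: same-numbered arrays deviated together in 6 of 18 pairs (r above 0.1, range -0.54 to 0.45), and 4 of 12 arrays correlated best with their own number. With the number as a block 5 members passed in WT, 5 in KO (Prkar2b -0.48, adjusted p = 0.0549) and 7 over both genotypes.

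Between genotypes, Rgs2 reversed to -0.079 at 22 °C and -0.056 over both temperatures with the muscle covariate, to 0.053 (mean of probe sets) and 0.025 (cyclic loess) in the cold, and to -0.067 over both with array weights. Pde4b reversed in the cold to -0.0080 with median centring and -0.039 with array weights, and to -0.0048 over both with array weights. In the cold response, Pde4d in WT reversed to -0.043 (centring) and -0.096 (muscle), and Pde3b over both genotypes to -0.030 (loess), -0.076 (centring) and -0.0052 (weights). The interaction reversed to 0.016 for Pde4a and 0.0068 for Rgs2 with loess, and to 0.046 for Rgs2 with the muscle covariate.

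Leaving out 1 array at a time, the difference between genotypes at 22 °C ran from -0.14 to 0.14 for Pde4b and -0.17 to 0.22 for Rgs2, and 0 to 1 members passed. In the cold it ran from -0.13 to 0.13 for Pde4b, -0.072 to 0.18 for Crem and -0.42 to 0.25 for Rgs2. Over both temperatures it ran from -0.058 to 0.083 for Pde4b, -0.040 to 0.18 for Pde4d, -0.19 to 0.14 for Rgs2 and -0.025 to 0.11 for Prkar2b. The cold response ran from -0.065 to 0.037 for Pde4d in WT and -0.037 to 0.042 for Pde3b over both genotypes, and the interaction from -0.16 to 0.17 for Pde4b and -0.45 to 0.21 for Rgs2.

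Over all genes, 122 passed between genotypes at 22 °C (37 with 6 arrays alone, 50 to 164 without 1 array). In the cold 202 did (397 with a minimum of 5, 307 with array weights, 32 with 6 arrays alone, 36 to 289 without 1 array), and over both 361 (613 with a minimum of 5, 231 with the muscle covariate, 162 to 488 without 1 array). WT cold replicate 1 gave the 36 and 162, and KO replicate 2 at 22 °C the 50. The interaction gave 6 (3 with the mean of probe sets, 26 with a minimum of 5, 17 with centring, 19 with a trended and robust spread, 22 with weights, 10 with the muscle covariate, 3 to 20 without 1 array). The cold response in KO gave 4254 (2737 with 6 arrays alone). Centring moved the median of all genes in KO to -0.12 and the calls there from 1849 higher and 2405 lower to 1342 and 3218. In WT 2082 higher and 1770 lower became 1753 and 2078 with loess and 1730 and 1956 with centring. Over both genotypes they moved from 2859 and 3165 to 2271 and 4036 with centring. Between genotypes in the cold, 80 higher and 122 lower became 107 and 103 with loess.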
